A study of Mus musculus with 4 samples.

Results

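A set of 7 genes that make, move and break down GABA or set the chloride gradient it acts through were followed across cortical somatostatin (SST) neurons. They are Gad1, Gad2, Slc32a1, Slc6a11, Abat, Slc12a5 and Slc12a2, taken by symbol as 7 of the 28000 gene rows in the deposited count tables. The rule uses no measured value, but the genes were chosen with earlier results of these data known. Cells came from the somatosensory cortex of SST-TdT-X94 mice on a Crl:CD1(ICR) background, in which Cre under Sst control switches on tdTomato and the X94 transgene places GFP under a Gad1 promoter. The 4 libraries were GFP+/tdTomato+ cells and tdTomato+ cells sorted from the same dissociated cortex of 6 mice at postnatal day 97 (P97), and tdTomato+ cells from 2 other batches of mice at P45 (replicates 1 and 2), whose number of mice the sources used here do not give. All mice carried all the transgenes, so no library lacked Cre, tdTomato or the X94 transgene, and tdTomato marks any cell that has ever driven Cre, whether or not it still makes Sst.

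GABA is made from glutamate by the glutamate decarboxylases GAD67, the product of Gad1, and GAD65, the product of Gad2. VGAT, encoded by Slc32a1, loads it into synaptic vesicles. Plasma membrane transporters, among them GAT-3 (Slc6a11) chiefly in astrocytes, take it back up, and GABA transaminase (Abat) starts its breakdown in mitochondria. Whether GABA inhibits depends on cell chloride, which KCC2 (Slc12a5) carries out of mature neurons and NKCC1 (Slc12a2) carries in.

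An SST cell was a barcode with 2000 or more unique molecular identifiers (UMIs, each a captured RNA molecule) and 3 or more Sst UMIs. There were 2086 such cells among 2611 barcodes. Of these, 208 were in the GFP+/tdTomato+ library and 570 in the tdTomato+ library of P97, with 664 and 644 at P45. Excitatory neurons, used as background, had 3 or more Slc17a7 UMIs and more Slc17a7 than Gad1 and Gad2 UMIs together, and numbered 6, 18, 70 and 25 in the same order of libraries. The few barcodes that met both rules, 2 to 4 per library, were counted as excitatory. An SST cell was positive for a marker at 2 or more UMIs and negative at 0. Levels (CPM) are UMIs of a gene per 1000000 UMIs of the summed cells. They are compared between groups and not between genes, and fewer molecules of a gene per cell cannot be told apart from more of all others.

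The libraries held 3410049 UMIs (GFP+/tdTomato+), 5693022 (P97 tdTomato+), 4906685 and 4801367 (P45 replicates 1 and 2) in all. The median SST cell held 15217.5 UMIs in the GFP+/tdTomato+ library and 5145.5 to 7559.5 in the tdTomato+ libraries, where the median excitatory neuron held 6778 to 10179.5. The 8 SST neuron markers summed to 7871 to 12392 CPM in SST cells of the tdTomato+ libraries and to 683 to 2400 CPM in excitatory neurons, while 10 excitatory markers summed to 6.16 to 16.5 CPM in SST cells. Oligodendrocyte markers (8 genes, none at 0) summed to 1075 to 1126 CPM there, but 4 or 5 cells in each of these libraries held 94.9% to 95.6% of those UMIs. Each member was therefore also tested without cells holding 10 or more of them, an alternative chosen after seeing the data. A total of 5 barcodes occurred in more than 1 library, and Scrublet called 5 to 16 doublets per library. GFP UMIs stood at 518 CPM in SST cells of the GFP+ sort and at 335 to 345 CPM in those of the 3 tdTomato+ libraries, in which GFP was not selected against.

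Nearly all SST cells had a UMI of a GABA synthesis gene. The 2 to 4 barcodes per library that met both rules are not among these SST cells, and the rule that removed them uses Gad1 and Gad2. After every cell was thinned to 3000 UMIs, at least 1 UMI of Gad1 or Gad2 was found in 99.5% of the GFP+/tdTomato+ SST cells (195 of 196, exact 95% interval 97.2 to 100.0), and in 99.2%, 98.3% and 99.1% of the P97, P45 replicate 1 and P45 replicate 2 tdTomato+ SST cells. Excitatory neurons chosen for having little of either had a UMI of one in 5.56%, 5.97% and 4.17% of the thinned cells of the tdTomato+ libraries, and in 38.9%, 11.4% and 8% without thinning. Thinning left out 12, 52, 88 and 64 shallower SST cells in the order of libraries above, and 0, 0, 3 and 1 excitatory cells. Both genes were found together in 83.4% to 87.8% of thinned SST cells. Slc32a1 was found in 75.5% of GFP+/tdTomato+ SST cells, and in 69.3%, 78.5% and 77.8% of the tdTomato+ ones, against 0 of 18, 67 and 24 thinned excitatory cells, which allows a share of up to 16.7%, 4.48% and 12.5%. Without thinning, the share of SST cells was 95.1% to 96.9% for Gad1, 94.2% to 97.7% for Gad2 and 86.8% to 92.8% for Slc32a1.

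Slc12a5 was widespread in both cell types, and Slc12a2 was sparse in both. Slc12a5 was found in 90.8%, 91.1%, 80.9% and 81.7% of thinned SST cells in the order of libraries above, and Slc12a2 in 6.12%, 7.72%, 10.6% and 8.97%. In excitatory neurons of the 3 tdTomato+ libraries the shares were 94.4%, 76.1% and 70.8% for Slc12a5 and 5.56%, 4.48% and 12.5% for Slc12a2. The Slc12a2 shares in SST cells thus lay within the range of the excitatory ones. Abat was found in 62.2% of thinned GFP+/tdTomato+ SST cells and in 51.4% to 52.3% of those of the tdTomato+ libraries, against 12.5% to 16.7% of excitatory cells. Slc6a11 was found in 0.772% to 2.43% of thinned SST cells, and in 0 of 18 P97 (which allows up to 16.7%), 10.4% of P45 replicate 1 and 8.33% of P45 replicate 2 excitatory cells. These excitatory shares were 22.2%, 24.3% and 16% without thinning. Without thinning, the shares of SST cells were 95.2%, 96.8%, 93.98% and 94.3% for Slc12a5, 20.4% to 27.9% for Slc12a2, 67.9% to 86.1% for Abat and 2.40% to 5.27% for Slc6a11.

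SST cells were compared with excitatory neurons on sums per library. Gad1 and Gad2 were not tested, because they helped to choose the excitatory cells. They stood at 1044, 1219 and 1125 CPM (Gad1) and at 2224, 998 and 978 CPM (Gad2) in SST cells of the P97, P45 replicate 1 and P45 replicate 2 tdTomato+ libraries. In excitatory neurons of the same libraries Gad1 was at 16.2, 5.70 and 13.5 CPM and Gad2 at 12.1, 9.51 and 4.50 CPM. Of the other 5 members, Slc32a1 and Abat were called higher and Slc6a11 lower (edgeR adjusted p under 0.05), where 9.82% of 10911 genes were called higher and 11% lower.

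Slc32a1 had 434, 522 and 506 CPM in SST cells, against 8.09, 3.80 and 4.50 CPM in excitatory neurons. The excitatory values rest on 2, 2 and 1 UMIs, and the ratio was 53.7 (exact 95% counting interval 14.8 to 443), 137 (37.9 to 1133) and 112 (20.2 to 4444) in the 3 libraries. The call (edgeR adjusted p = 7.4e-10) rests on the same few UMIs. Abat had 285, 264 and 259 CPM in SST cells, against 64.7, 38.0 and 18.0 CPM in excitatory neurons, a log2 fold change of 2.70 (SE 0.25, edgeR adjusted p = 1.23e-06). Neither gene's ranges overlapped between the cell types. Slc6a11 had 3.08, 9.62 and 5.38 CPM in SST cells, against 20.2, 36.1 and 22.5 CPM in excitatory neurons, a log2 fold change of -2.19 (SE 0.46, edgeR adjusted p = 0.00252). These excitatory values also rest on few molecules, with a Slc6a11 UMI in 4 of 18, 17 of 70 and 4 of 25 unthinned cells.

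Slc6a11 is best known from astrocytes, so astrocyte markers were read beside it. Of 11 astrocyte markers, 5 or 6 were at 0 in the excitatory neurons of each tdTomato+ library, Aqp4, Gfap, Gja1, Gjb6 and Slc1a3 always among them. The list summed to 27.8 to 72.7 CPM in SST cells, where 3 to 6 were at 0, and 325 to 696 CPM in excitatory neurons. Most of that sum was Slc1a2, a glutamate transporter that some neurons also express, at 14.0 ± 3.48 CPM in SST cells and 436 ± 125 CPM in excitatory neurons (SD, n = 3 libraries each). Their part in the Slc6a11 difference was not tested.

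Neither chloride transporter passed the test between the cell types. Slc12a5 had 834, 559 and 605 CPM in SST cells, against 914, 430 and 459 CPM in excitatory neurons (log2 fold change 0.16, SE 0.16, edgeR adjusted p = 0.544). Slc12a2 had 35.1, 48.4 and 44.4 CPM in SST cells, against 20.2, 17.1 and 36.0 CPM in excitatory neurons. It was higher in SST cells in all 3 libraries, but the ranges overlapped and the test was not passed (log2 fold change 0.88, SE 0.34, edgeR adjusted p = 0.0826). Without a filter on low counts it was called (adjusted p = 0.0351).

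Among 22 other genes of GABA handling, 15 were tested, of which 7 were higher and 2 lower in SST cells, with a median log2 fold change of 0.83 where that of all genes was 0.04. Aldh5a1, succinic semialdehyde dehydrogenase, which takes up the product of Abat, was higher (log2 fold change 2.27, SE 0.28), and Slc1a2 was lower (-4.97). Of 25 genes of chloride transport and its control, 18 were tested, 6 were higher and 2 lower, with a median log2 fold change of 0.09. Over all genes 9.82% were called higher and 11% lower. Clcn5, an endosomal chloride/proton exchanger, was called higher with 4 UMIs in the excitatory neurons of the 3 libraries together, a ratio of 7.45 (exact 95% counting interval 2.89 to 27.5), and the channel gene Clcn2 was lower (log2 fold change -1.32).

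**Figure D1:**
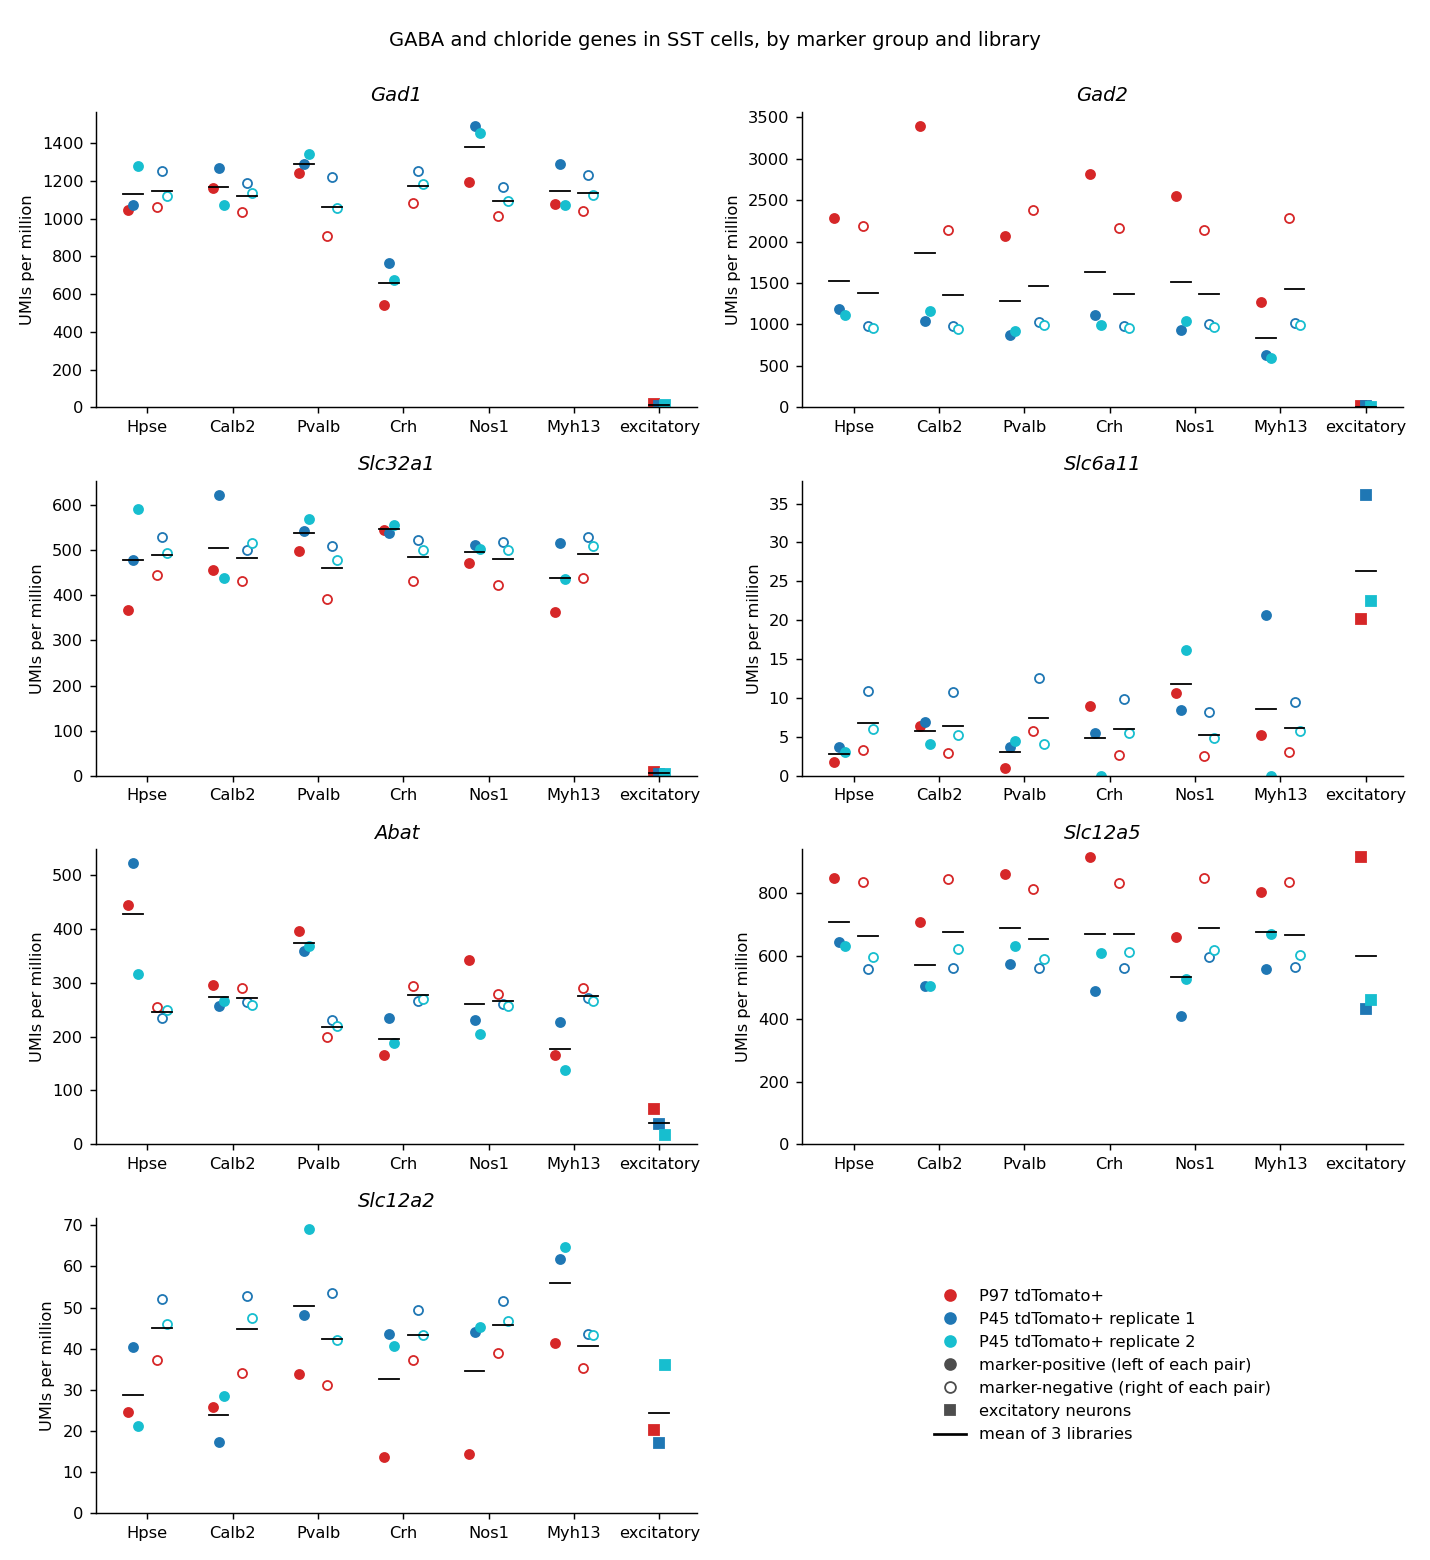
CPM (linear axes from 0) of each gene in marker-positive (filled circles, left of each pair) and marker-negative SST cells (open circles, right) and in excitatory neurons (squares), with 1 point per tdTomato+ library and a bar at the mean of the 3. Gad1 in Crh-positive cells (540.0 to 767 CPM) lies below every Crh-negative value, Abat in Hpse- and Pvalb-positive cells lies above every negative value, and Gad2 at P97 (red) lies above P45 (blue and light blue) in every group.

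Marker-positive SST cells were compared with the negative cells of the same library. In the P97, P45 replicate 1 and P45 replicate 2 tdTomato+ libraries there were 43, 27 and 39 Hpse-positive cells, 31, 82 and 55 Calb2-positive cells, and 155, 96 and 102 Pvalb-positive cells. Crh-positive cells numbered 27, 30 and 43, Nos1-positive cells 28, 87 and 39, and Myh13-positive cells 28, 23 and 26. The groups were not exclusive: 44 cells were positive for both Hpse and Pvalb, which is 40.4% of the Hpse-positive and 12.5% of the Pvalb-positive cells, and 34 were positive for both Calb2 and Nos1 (20.2% and 22.1%). Positive cells were mostly deeper, with median UMIs of 12261, 7597.5 and 8627.5 in Pvalb-positive cells, against 6349, 4625 and 5592.5 in Pvalb-negative cells. In Myh13-positive cells the medians were 6960.5, 4365 and 4649, below the 7701, 5221 and 6359 of Myh13-negative cells. Th-positive cells numbered 0, 12 and 9, too few for a test. Set at 1 or more Th UMIs, over the P45 libraries, edgeR called 0 of 7 members, with 1 at an unadjusted p under 0.05, where 2.46% of 10608 genes were called.

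The set of members called differed between markers, and 11 calls were made over the 6 marker comparisons. Abat, Gad1 and Gad2 were each called for more than 1 marker. In Hpse-positive cells 1 of 6 members tested was higher (Abat) and none lower, where 5.35% of 10517 genes were called higher and 6.09% lower. In Calb2-positive cells 1 of 7 was higher (Gad2) and 1 lower (Slc12a2), with 4.36% and 3.56% of 10393 genes called. In Pvalb-positive cells 3 of 6 were higher (Gad1, Slc32a1 and Abat) and none lower, with 7.84% and 7.68% of 10613 genes called. In Crh-positive cells none of 7 was higher and 2 were lower (Gad1 and Abat), with 2.62% and 2.88% of 10593 genes called. In Nos1-positive cells 1 of 7 was higher (Gad1) and none lower, with 4.44% and 2.69% of 10320 genes called. In Myh13-positive cells none of 7 was higher and 2 were lower (Gad2 and Abat), with 2.19% and 3.57% of 10525 genes called. Of the 11 calls, 3 held under every alternative run: Abat in Hpse-positive cells, Abat in Pvalb-positive cells and Gad1 in Crh-positive cells. Without library as a block these 3 and Abat in Myh13-positive cells were called, and the other 7 calls were lost, with edgeR adjusted p of 0.66 (Gad2) and 0.17 (Slc12a2) for Calb2, 0.305 (Gad1) and 0.419 (Slc32a1) for Pvalb, 0.103 (Abat) for Crh, 0.13 (Gad1) for Nos1 and 0.285 (Gad2) for Myh13.

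**Figure D2:**
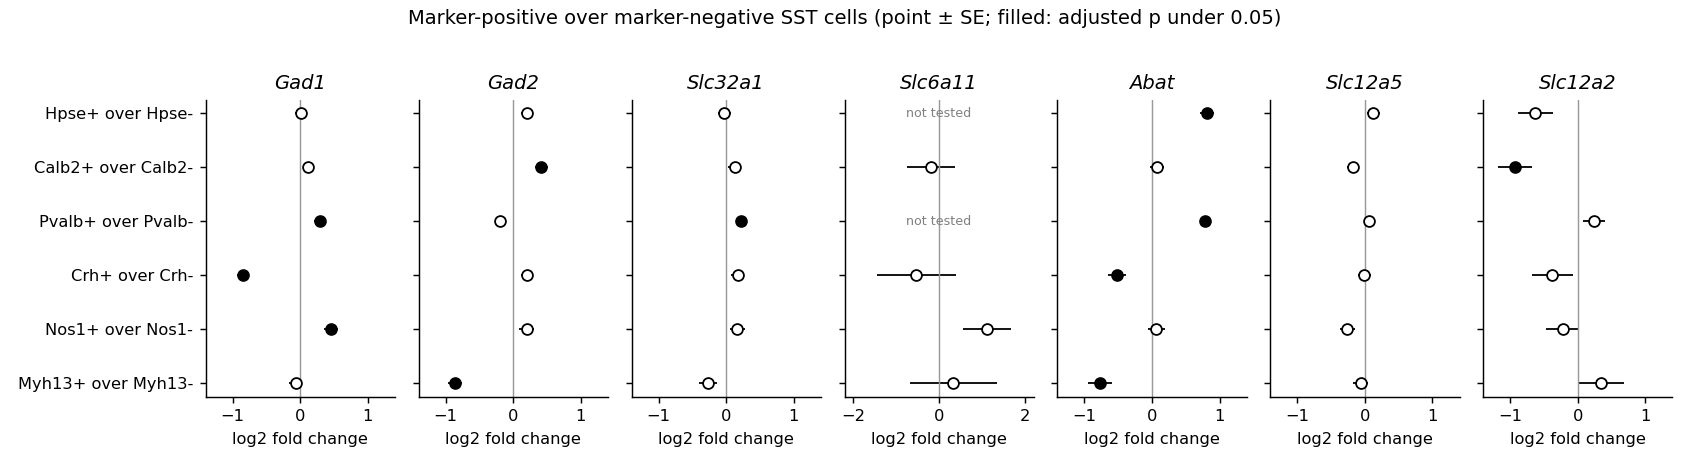
Log2 fold change of marker-positive over marker-negative SST cells for each gene (point, with its SE as the bar), fitted over 3 tdTomato+ libraries. Filled points have an edgeR adjusted p under 0.05 over all genes tested. Abat runs from 0.81 in Hpse-positive to -0.77 in Myh13-positive cells, while no Slc12a5 point is filled.

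Gad1 was lowest in Crh-positive cells. It had 540.0, 767 and 673 CPM in Crh-positive cells of the P97, P45 replicate 1 and P45 replicate 2 libraries, against 1081, 1251 and 1182 CPM in Crh-negative cells. Every positive value lay below every negative one. The log2 fold change was -0.84 (SE 0.09, edgeR adjusted p = 3.94e-07), between -0.97 and -0.61 over 17 alternatives. Crh-positive cells of the GFP+ sort, which did not enter the fit, had 742 CPM (10 cells), against 1219 CPM in its Crh-negative cells.

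Gad1 was higher in Nos1- and in Pvalb-positive cells, by less. Nos1-positive cells had 1192, 1489 and 1453 CPM, against 1016, 1169 and 1092 CPM in Nos1-negative cells, without overlap (log2 fold change 0.45, SE 0.11, edgeR adjusted p = 0.00376). That call was lost without the P97 library (log2 fold change 0.51, edgeR adjusted p = 0.0921) and without P45 replicate 1 (0.41, adjusted p = 0.0922). Fits that leave out a library have fewer sums to measure the spread from. The call was also lost among cells positive for Nos1 alone (log2 fold change 0.28, adjusted p = 0.6). The 10 excitatory markers summed to 42.1 to 44.0 CPM in Nos1-positive cells, with 7 or 8 at 0, against 4.03 to 10.8 CPM in Nos1-negative cells, with 2 to 4 at 0, and their part in this result was not tested. Pvalb-positive cells had 1240.3, 1289.7 and 1343 CPM, against 906, 1223 and 1057 CPM in Pvalb-negative cells (log2 fold change 0.29, SE 0.08, edgeR adjusted p = 0.011). The widest gap was at P97. Without that library the log2 fold change was 0.21 (edgeR adjusted p = 0.237), and without P45 replicate 2 it was 0.26 (adjusted p = 0.107). In order of mean level, Gad1 ran from Nos1-positive cells (1378 ± 162 CPM, SD, n = 3 libraries) through Pvalb-, Calb2-, Myh13- and Hpse-positive cells (1132 ± 128) to Crh-positive cells (660 ± 114). Only the last step separated neighbours whose ranges did not overlap.

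Gad2 varied most with Myh13. Myh13-positive cells had 1265, 629 and 598 CPM in the P97, P45 replicate 1 and P45 replicate 2 libraries, against 2279, 1017 and 998 CPM in Myh13-negative cells. The positive value was the lower in each library, by nearly the same factor, though the P97 positive value exceeded the P45 negative ones. The log2 fold change was -0.86 (SE 0.11, edgeR adjusted p = 1.89e-09), which held in 15 of 16 alternatives and was lost without library as a block.

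Calb2-positive cells had more Gad2 than Calb2-negative cells. The levels were 3391, 1037 and 1165 CPM, against 2145, 987 and 943 CPM in Calb2-negative cells (log2 fold change 0.42, SE 0.09, edgeR adjusted p = 0.00366). The gap was widest at P97. Without that library the log2 fold change was 0.25 and the adjusted p 0.167. In Pvalb-positive cells Gad2 had 2063, 869 and 922 CPM, against 2375, 1027 and 987 CPM in Pvalb-negative cells, lower in all 3 libraries but not called (log2 fold change -0.19, SE 0.07, edgeR adjusted p = 0.0824). It was called lower in cells with 5000 or more UMIs (log2 fold change -0.30, adjusted p = 0.000906) and in those positive for Pvalb alone (-0.24, adjusted p = 0.0199).

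The balance of the 2 decarboxylase transcripts differed between groups. The ratio of Gad1 to Gad2 UMIs, compared here between groups and not read as a ratio of molecules in the cell, was 0.192, 0.691 and 0.678 in Crh-positive cells, against 0.499, 1.28 and 1.23 in Crh-negative cells. Myh13-positive cells stood at the other end, with 0.852, 2.05 and 1.80, against 0.457, 1.21 and 1.13 in Myh13-negative cells. Pvalb-positive cells had 0.601, 1.48 and 1.46, against 0.381, 1.19 and 1.07 in Pvalb-negative cells. Within each library, Myh13-positive cells had the highest and Crh-positive cells the lowest ratio of the 6 positive groups. No test was run on these ratios beyond the tests of the genes.

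**Figure D3:**
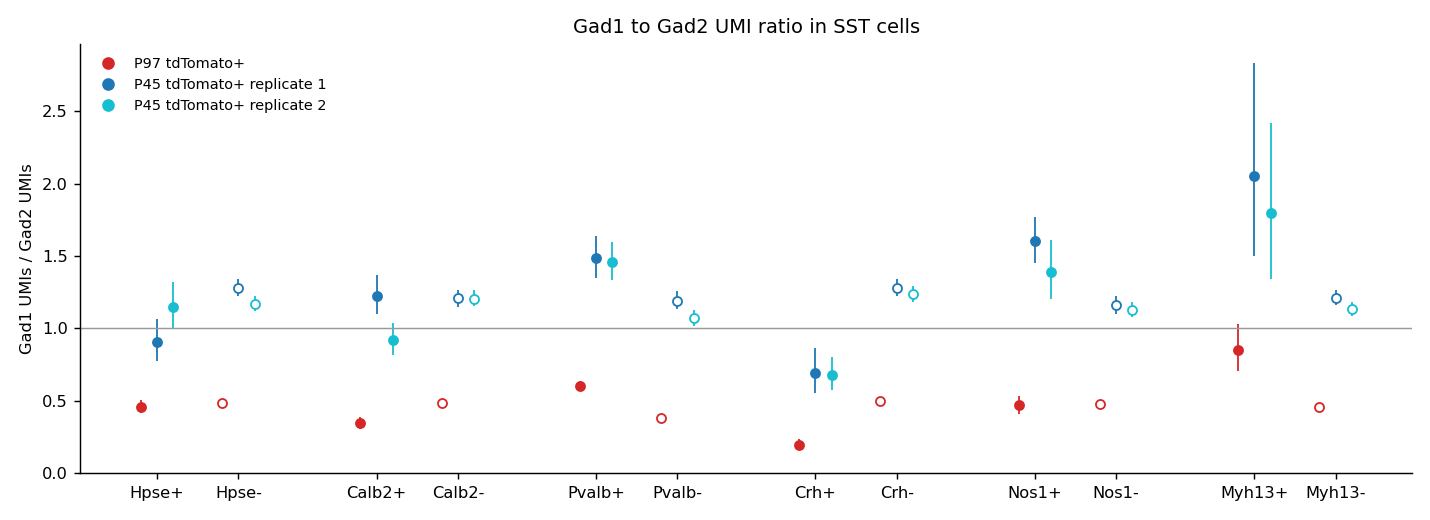
Gad1 UMIs divided by Gad2 UMIs in marker-positive (filled) and marker-negative (open) SST cells, with 1 point per tdTomato+ library and exact 95% intervals that cover counting error only. Crh-positive cells (0.192 to 0.691) and Myh13-positive cells (0.852 to 2.05) lie at the ends within each library, and all P97 points lie below the P45 points of their group.

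Slc32a1 varied little over the marker groups. Its mean level was between 438 CPM in Myh13-positive and 546 CPM in Crh-positive cells, and no neighbours in the order of groups had separate ranges. Crh-negative cells had 485 CPM, below Crh-positive cells without overlap, but the difference was not called (edgeR adjusted p = 0.408). Slc32a1 was lower in Myh13-positive than in Myh13-negative cells (491 CPM) in all 3 libraries, also not called (edgeR adjusted p = 0.284). In Pvalb-positive cells it had 499, 543 and 570 CPM, against 392, 509 and 479 CPM in Pvalb-negative cells, higher in all 3 libraries with overlapping ranges. That difference passed the test narrowly (log2 fold change 0.23, SE 0.08, edgeR adjusted p = 0.0484) and was lost in 9 of 17 alternatives. Without the P97 library the log2 fold change was 0.17 (adjusted p = 0.329), and without P45 replicate 2 it was 0.21 (adjusted p = 0.194).

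Abat differed in 4 of the 6 comparisons, in both directions. In Hpse-positive cells it had 445, 522 and 315 CPM in the P97, P45 replicate 1 and P45 replicate 2 libraries, against 254, 234 and 249 CPM in Hpse-negative cells. The lowest positive value lay above the highest negative one. The log2 fold change was 0.81 (SE 0.11, edgeR adjusted p = 3.94e-12), between 0.65 and 0.99 over 17 alternatives. Pvalb-positive cells had 395, 359 and 367 CPM, against 199, 231 and 220 CPM in Pvalb-negative cells, again with no overlap (log2 fold change 0.79, SE 0.08, edgeR adjusted p = 8.18e-08), between 0.53 and 0.90 over 17 alternatives. Both held among cells positive for that marker alone, which leaves out cells positive for both.

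Oligodendrocyte markers also differed between these groups. They summed to 1177, 3020 and 2266 CPM in Pvalb-positive cells, against 722, 468 and 963 CPM in Pvalb-negative cells, and 5 Pvalb-positive cells held 10 or more of these UMIs. Without all cells of that kind the 3 Pvalb calls stood as before. Markers of other interneurons (8 genes, 1 or 2 at 0 in the positive and 1 to 4 in the negative cells of a library) summed to 140 to 182 CPM in Pvalb-positive cells, against 34.0 to 64.2 CPM in Pvalb-negative cells, and the 8 SST markers (none at 0) to 5422 to 7518 CPM, against 9845 to 13953 CPM. The part of both lists in the Pvalb results was not tested. The oligodendrocyte list stood at 30.3 to 40.3 CPM in Hpse-positive cells, against 891 to 1381 CPM in Hpse-negative ones, and the Hpse call also stood without those cells.

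Crh- and Myh13-positive cells had less Abat than the negative cells of the same marker, which included Pvalb- and Hpse-positive cells. Of 353 Pvalb-positive cells 13 were Crh-positive and 5 Myh13-positive. Pvalb-negative cells had 217 ± 16.2 CPM (SD, n = 3 libraries), and neither group was tested against them. Crh-positive cells had 166, 234 and 187 CPM, against 293, 265 and 270 CPM in Crh-negative cells, without overlap (log2 fold change -0.52, SE 0.13, edgeR adjusted p = 0.0165). Myh13-positive cells had 166, 227 and 137 CPM, against 291, 271 and 265 CPM in Myh13-negative cells, also without overlap (log2 fold change -0.77, SE 0.18, edgeR adjusted p = 0.00122). Without the P97 library the log2 fold change was -0.41 for Crh (edgeR adjusted p = 0.103) and -0.68 for Myh13 (adjusted p = 0.0821). Without P45 replicate 2 it was -0.53 for Crh (adjusted p = 0.0765). In order of mean level Hpse-positive (427 ± 104 CPM) and Pvalb-positive cells (374 ± 19.0) stood above Calb2- (273 ± 20.1), Nos1- (259 ± 73.5), Crh- (196 ± 34.5) and Myh13-positive cells (177 ± 45.8, SD, n = 3 libraries each). The only neighbours with separate ranges were the Pvalb- and Calb2-positive cells.

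Slc6a11 was too sparse to rank the groups. Its level was 0 to 20.6 CPM over the 6 positive groups and 3 libraries, and it failed the filter on low counts in the Hpse and Pvalb comparisons. In Nos1-positive cells it had 10.7, 8.52 and 16.2 CPM, against 2.53, 8.16 and 4.90 CPM in Nos1-negative cells, higher in each library but not called (edgeR adjusted p = 0.291). The positive values rest on 3, 6 and 5 UMIs.

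Slc12a5 passed no marker comparison. Its mean level over the positive groups was between 532 CPM in Nos1-positive and 707 CPM in Hpse-positive cells, with every pair of neighbours overlapping. The largest difference was in Nos1-positive cells, which had 660, 409 and 528 CPM, against 848, 596 and 619 CPM in Nos1-negative cells (log2 fold change -0.26, SE 0.11, edgeR adjusted p = 0.212). It was called with positive cells set at 3 or more Nos1 UMIs (-0.47, adjusted p = 0.0195).

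Slc12a2 was lower in Calb2-positive cells. They had 25.7, 17.2 and 28.4 CPM, against 34.0, 52.9 and 47.4 CPM in Calb2-negative cells, without overlap (log2 fold change -0.93, SE 0.25, edgeR adjusted p = 0.0193). The call was lost without cells holding 10 or more oligodendrocyte UMIs, with the same sign (log2 fold change -0.67, adjusted p = 0.146), and oligodendrocyte markers themselves summed to 48.2 to 68.6 CPM in Calb2-positive cells, against 917 to 1290 CPM in Calb2-negative cells. Their part in the result was not tested further. The Calb2 call was lost in 5 of 16 alternatives, among them without P45 replicate 1 (log2 fold change -0.56, adjusted p = 0.401). With positive cells at 1 or more Calb2 UMIs the log2 fold change was -0.35 (edgeR adjusted p = 0.42), and with DESeq2 -0.88 (adjusted p = 0.439). The Calb2-positive values rest on 8, 10 and 14 UMIs. In Hpse-positive cells Slc12a2 had 24.5, 40.4 and 21.2 CPM, against 37.3, 52.0 and 45.9 CPM in Hpse-negative cells, lower in each library but not called (log2 fold change -0.63, SE 0.26, edgeR adjusted p = 0.0962). In Pvalb-positive cells it had 33.8, 48.2 and 69.0 CPM, against 31.1, 53.6 and 42.1 CPM in Pvalb-negative cells (log2 fold change 0.24, SE 0.16, edgeR adjusted p = 0.364). Its sign there depended on how cells were grouped, since with groups called at 1 or more Pvalb UMIs after thinning it was called lower (-0.62, adjusted p = 0.00661).

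Other genes of the pathway were called mainly in the Hpse and Pvalb comparisons, which among the marker comparisons also called the most genes over all. For Hpse 5.35% of all genes were called higher and 6.09% lower. In Hpse-positive cells 3 of 15 other GABA handling genes tested were higher and 1 lower (median log2 fold change 0.21, against -0.02 over all genes). Slc1a1, the neuronal glutamate transporter, was higher (202 ± 29.4 CPM in Hpse-positive against 123 ± 4.42 CPM in Hpse-negative cells, SD, n = 3 libraries, log2 fold change 0.75), as were Glul, glutamine synthetase (0.72), and Slc38a2, a glutamine transporter (0.48). Slc1a2 was called lower with 4 UMIs in Hpse-positive cells of the 3 libraries together, a ratio of 0.214 (exact 95% counting interval 0.0577 to 0.558). Of 18 chloride genes tested 2 were higher and 1 lower (median 0.13). The lower one was Ttyh1, a member of the tweety family (-0.51).

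In Pvalb-positive cells 5 of 15 GABA handling genes were higher and 1 lower (median 0.09, against 0.00 over all genes). Aldh5a1 was higher (132 ± 26.2 CPM in Pvalb-positive against 89.0 ± 20.9 CPM in Pvalb-negative cells, log2 fold change 0.55), as was the glutamine transporter Slc38a1 (442 ± 41.5 CPM in Pvalb-positive against 332 ± 13.1 CPM in Pvalb-negative cells, 0.40), and Slc1a2 was lower (-1.33). Of 18 chloride genes 1 was higher, Stk39, which encodes a kinase that phosphorylates NKCC1 and KCC2 (0.52), and 1 lower, Slc4a10, a sodium-driven chloride/bicarbonate exchanger (-0.29). Over all genes 7.84% were called higher and 7.68% lower, so these chloride counts were near the general share. Errors of the means are SDs over 3 libraries.

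In Myh13-positive cells Slc1a1 was lower (76.4 ± 49.98 CPM in Myh13-positive against 137 ± 1.99 CPM in Myh13-negative cells, log2 fold change -1.09) and Slc4a10 higher (271 ± 21.8 CPM in Myh13-positive against 178 ± 14.0 CPM in Myh13-negative cells, 0.55; SD, n = 3 libraries), 1 of 14 GABA handling and 1 of 18 chloride genes, with medians of -0.12 and -0.21 against -0.08 over all genes. Over all genes 2.19% were called higher and 3.57% lower in Myh13-positive cells. In the Calb2, Crh and Nos1 comparisons edgeR called no gene of either list, with 3, 3 and 2 GABA handling genes and 2 chloride genes in each at an unadjusted p under 0.05, and DESeq2 also called none. DESeq2 called 1 GABA handling and 0 chloride genes in the Hpse comparison, 1 and 0 in the Pvalb comparison, and 0 and 0 in the Myh13 comparison, fewer than edgeR in each. In the Calb2, Crh and Nos1 comparisons the list medians were 0.09, -0.38 and -0.03 for GABA handling and -0.07, -0.11 and -0.08 for chloride genes.

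Mice at P97 and P45 were compared over the SST cells of the tdTomato+ libraries, 1 library against 2. Age cannot be told apart from batch of mice here, and the spread rests on the 2 P45 libraries. Of the 7 members 1 was higher at P97 (Gad2) and none lower, where 1.83% of 12061 genes were called higher and 0.547% lower.

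Gad2 had 2224 CPM at P97, against 998 and 978 CPM at P45, a log2 fold change of 1.16 (SE 0.12, edgeR adjusted p = 0.000321), between 1.16 and 1.21 over 8 alternatives. The GFP+/tdTomato+ cells of the same P97 mice, outside this test, had 2456 CPM. The P97 value exceeded both P45 values in each of the 6 marker-positive groups, with 3391 CPM in Calb2-positive and 1265 CPM in Myh13-positive cells at the extremes. In cells positive for no marker it was 2268 CPM at P97, against 1031 and 948 CPM at P45. Gad1 had 1044 CPM at P97, against 1219 and 1125 CPM at P45 (log2 fold change -0.18, SE 0.13, edgeR adjusted p = 0.597). The Gad1 to Gad2 ratio was therefore 0.492 in GFP+/tdTomato+ and 0.469 in tdTomato+ SST cells at P97, against 1.22 and 1.15 at P45.

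Slc12a5 had 834 CPM at P97, against 559 and 605 CPM at P45 (log2 fold change 0.51, SE 0.12). It fell short of the threshold (edgeR adjusted p = 0.0562), but was called in cells with 5000 or more UMIs (0.57, adjusted p = 0.0207) and without a filter on low counts (adjusted p = 0.00289). The same direction was seen in excitatory neurons, with 914 CPM at P97 (18 cells), against 430 and 459 CPM at P45, and in the GFP+ sort of the P97 mice, with 797 CPM in SST cells and 804 CPM in 6 excitatory neurons. Slc12a2 had 35.1 CPM at P97, against 48.4 and 44.4 CPM at P45 (log2 fold change -0.41, SE 0.17, edgeR adjusted p = 0.303). The ratio of Slc12a5 to Slc12a2 UMIs was 35.3 in GFP+/tdTomato+ and 23.8 in tdTomato+ SST cells at P97, against 11.5 and 13.6 at P45.

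The other members did not pass the age test. Slc32a1 had 434 CPM at P97, against 522 and 506 CPM at P45 (log2 fold change -0.25, edgeR adjusted p = 0.38), and Abat 285 CPM, against 264 and 259 CPM (0.11, adjusted p = 0.72). Slc6a11 had 3.08 CPM, against 9.62 and 5.38 CPM (-1.28, adjusted p = 0.279). Of 15 other GABA handling genes Slc6a8, the creatine transporter of the same family, was called, at 129 CPM at P97, against 62.8 and 55.2 CPM at P45 (log2 fold change 1.12, edgeR adjusted p = 0.000874). None of 18 chloride genes was called by edgeR or DESeq2, with 1 at an unadjusted p under 0.05.

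**Figure D4:**
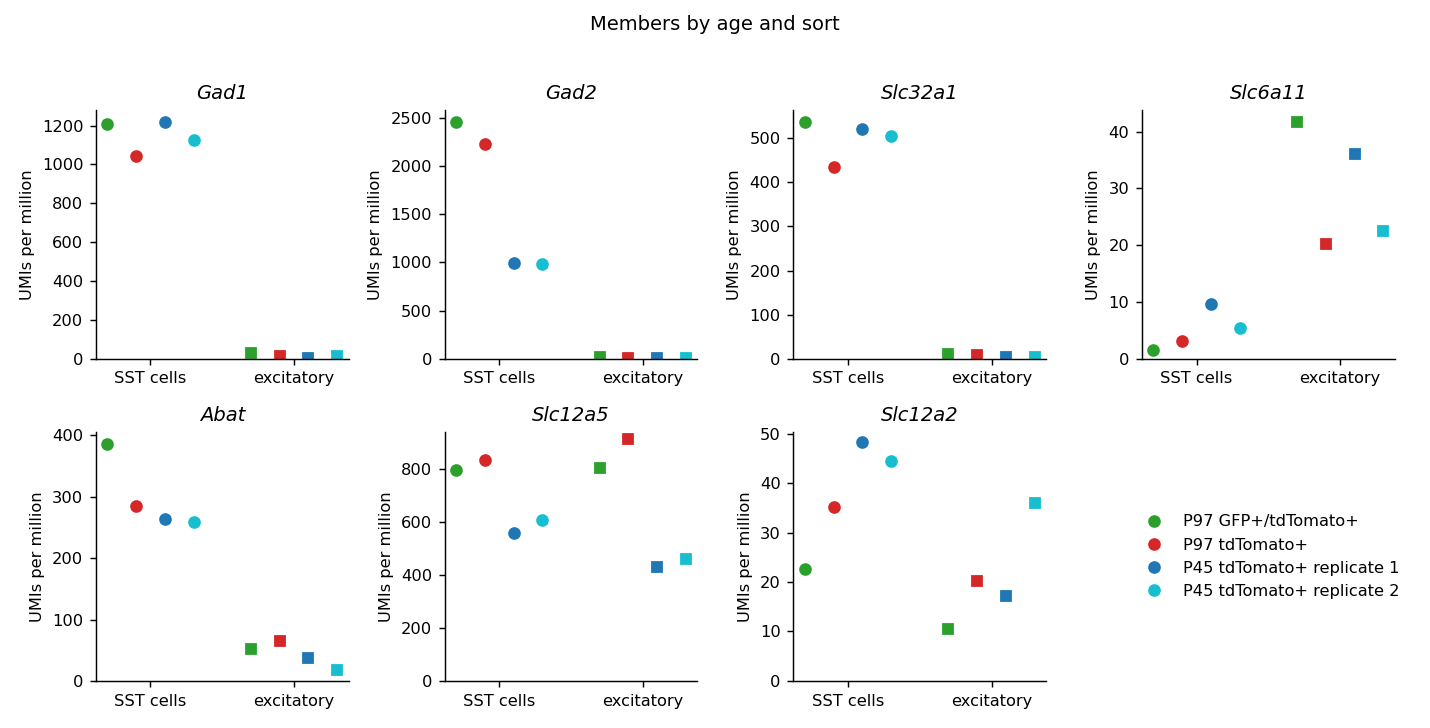
CPM (linear axes from 0) of each gene in SST cells (circles) and excitatory neurons (squares) of the P97 GFP+/tdTomato+, P97 tdTomato+ and both P45 tdTomato+ libraries, 1 point per library. Gad2 in SST cells stands at 2456 and 2224 CPM at P97 and at 998 and 978 CPM at P45, and the Slc12a5 points lie higher at P97 in both cell types.

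The difference between positive and negative cells was also compared between ages. Of 40 such terms (each member tested, over the 6 marker comparisons) edgeR called none and 1 had an unadjusted p under 0.05, where 0.0524% of 62961 such terms over all genes were called and 4.8% had an unadjusted p under 0.05. This was Gad2 in Calb2-positive cells, 0.44 wider at P97 on the log2 scale (SE 0.18, edgeR adjusted p = 0.824).

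The P97 sorts compared GFP+/tdTomato+ with tdTomato+ SST cells of the same mice, 1 library each, so there is no replicate check and intervals cover counting error only. Of the 7 members 4 had an interval above 1 and 1 an interval below 1. So had 11% and 19.2% of 12499 genes with 10 or more UMIs over both sorts, and 15.4% and 24% of 6619 genes with 200 or more, a background chosen after seeing the data. Abat had 387 CPM in GFP+/tdTomato+ cells and 285 CPM in tdTomato+ cells, a ratio of 1.36 (exact 95% interval 1.26 to 1.47). In the same order of sorts, GFP+/tdTomato+ and tdTomato+, Slc32a1 had 537 and 434 CPM, a ratio of 1.24 (1.16 to 1.32), Gad1 1208 and 1044 CPM, a ratio of 1.16 (1.11 to 1.21), and Gad2 2456 and 2224 CPM, a ratio of 1.10 (1.07 to 1.14). Slc12a2 had 22.6 CPM in GFP+/tdTomato+ cells and 35.1 CPM in tdTomato+ cells, a ratio of 0.643 (0.482 to 0.850). The interval held 1 for Slc12a5 (0.955, lower bound 0.909) and Slc6a11 (0.502, 0.143 to 1.45). GFP in these mice is placed under a Gad1 promoter, and the part of this in the Gad1 ratio was not tested.

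The sort also changed which cells were counted. Hpse-positive cells made up 91 of 208 SST cells in the GFP+/tdTomato+ library and 43 of 570 in the tdTomato+ one, and Pvalb-positive cells 112 and 155. Within Hpse-positive cells the Abat ratio was 0.937 (0.811 to 1.09) and within Pvalb-positive cells 1.07 (0.969 to 1.17), so neither interval left out 1. Among marker-negative cells Abat was also higher in the GFP+/tdTomato+ library. It had 341 against 254 CPM in Hpse-negative cells and 285 against 199 CPM in Pvalb-negative cells, for which no interval is given. Hpse-negative cells still included Pvalb-positive ones. Cells positive for Pvalb alone numbered 45 beside 90 Hpse-negative cells in the GFP+/tdTomato+ library, and 119 beside 491 in the tdTomato+ one. The part of cell composition in the Abat ratio was not tested. Gad2 kept a ratio of 1.13 (1.06 to 1.20) in Hpse-positive and 1.12 (1.07 to 1.17) in Pvalb-positive cells, and Slc32a1 one of 1.44 (1.24 to 1.68) and 1.12 (1.03 to 1.22). Crh-positive cells, 10 in the GFP+/tdTomato+ and 27 in the tdTomato+ library, had a Gad2 ratio of 0.794 (0.691 to 0.910) and an Abat ratio of 1.74 (1.09 to 2.79). The median GFP+/tdTomato+ cell of these groups was deeper, at 18760 UMIs in Hpse-positive and 19799 in Pvalb-positive cells, against 13392 and 12261 in the tdTomato+ library, and the part of depth was not tested.

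**Figure D5:**
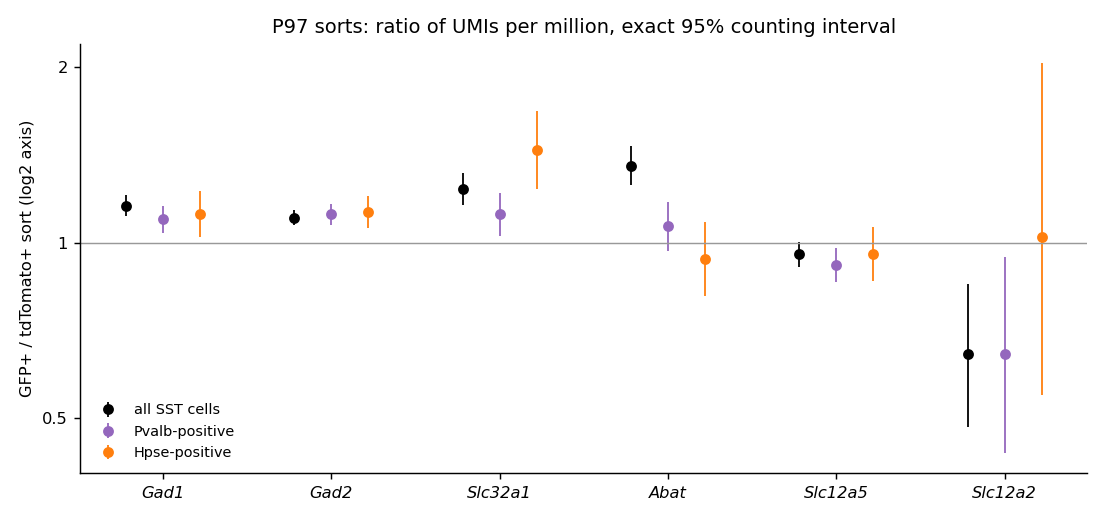
Ratio of CPM in the GFP+/tdTomato+ library over the tdTomato+ library at P97 (log2 axis), for all SST cells (black), Pvalb-positive (purple) and Hpse-positive cells (orange), with exact 95% intervals for counting error only. Slc6a11, with 5 and 15 UMIs, is left out. Abat stands at 1.36 over all SST cells and near 1 within both groups.

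Likeness of profiles was read over 19 sums of marker-positive cells (at least 10 cells of a group and library), centred within library, which share libraries and some cells, so that correlations are descriptions. The Th-positive cells of P45 replicate 1 (12 cells) are among these sums. Among 7229 genes at 20 CPM or more on average, the gene most like Slc12a5 was Adcy1, an adenylyl cyclase (Pearson r = 0.93), and the one most like Abat was Rgs7bp, which binds an RGS protein (0.89). Gad1 was most like Ptcd3 (0.89), Gad2 like Mrpl17 (0.86), Slc12a2 like Purg (0.81) and Slc32a1 like Ptp4a3 (0.70). Among the members themselves r was between -0.55 for Slc6a11 and Slc12a5 and 0.45 for Gad2 and Slc32a1, with Gad1 and Gad2 at -0.08. Slc6a11 itself was below 20 CPM on average. Pairs of members cannot be set against the values above, which are the highest among 7229 genes.

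In the GRCm38 build Gad1 (ENSMUSG00000070880) lies on chromosome 2 from 70553072 to 70602014, Gad2 (ENSMUSG00000026787) on chromosome 2 from 22622205 to 22693874, Slc32a1 (ENSMUSG00000037771) on chromosome 2 from 158610767 to 158615748 and Slc12a5 (ENSMUSG00000017740) on chromosome 2 from 164960802 to 164999731, all on the plus strand. Abat (ENSMUSG00000057880) lies on chromosome 16 from 8513429 to 8621568 and Slc6a11 (ENSMUSG00000030307) on chromosome 6 from 114131241 to 114249952. Slc12a2 (ENSMUSG00000024597) lies on chromosome 18 from 57878678 to 57946821. The antisense gene Gad1os gave 0 to 7 UMIs in the SST cells of a library.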

How the data were processed

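The authors prepared Chromium Single Cell 3' libraries, aligned reads to GRCm38 with Cell Ranger 2.0.0 and deposited raw counts of UMIs per gene and barcode, not normalized, for 232 GFP+/tdTomato+ and 2379 tdTomato+ barcodes, as many as the study states. The sources used here do not name the annotation release. Counts per library were summed over cells chosen by their UMIs (the cells' rules stand in the report), and a group needed 10 or more cells. The quasi-likelihood test of edgeR 4.0.16, after filterByExpr and TMM scaling, took in the 3 tdTomato+ libraries and blocked on library, and genes were called at a Benjamini-Hochberg adjusted p under 0.05 over all genes tested. Positive and negative cells of 1 library share their mice, which is where the pairing comes from. Age was tested without a block. The marker itself was left out of its own test. Standard errors are the log2 fold change over the square root of F. Libraries are separate batches of mice, 3 in all, and edgeR draws each gene's spread towards that of other genes. Scripts were tested on simulated counts.

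The P97 sorts and shares of cells carry exact 95% intervals for counting error only, and the limit beside a share of 0 is that of 3 cells. Alternatives changed the marker threshold, depth and Sst minimum, doublets (Scrublet, scanpy 1.11.5), normalization (RLE), tool (DESeq2 1.42.0), filter, block and libraries. The 7 genes and both gene lists, of 22 (Pdxp was not matched) and 25 genes, were chosen with earlier results of these data known. In each comparison up to 3 called list genes per direction with the largest fold change were named, and some list genes are not reported here. Positions come from GENCODE M21, in which 27645 gene identifiers were found.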

Additional observations from a re-analysis of the deposited data

How the results depend on the processing

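Of 767 values of the 7 genes under alternatives, 684 kept their direction and side of the threshold, 39 values that were not called in either case changed sign, 33 lost a call and 10 gained one. The remaining value, Slc12a2 in Pvalb-positive cells, turned to -0.62 with groups called after thinning. The number of members called was 1 for Hpse, and 2 with positive cells at 1 or more UMIs. For Calb2 it was 2, and 1 at 1 or more UMIs, 1 without cells holding 10 or more oligodendrocyte UMIs, 1 with DESeq2, 0 without the replicate block, and 1 to 2 without 1 library. For Pvalb it was 3, and 1 at 1 or more UMIs, 5 with groups called after thinning, 1 without the replicate block, and 1 to 3 without 1 library. For Crh it was 2, and 3 at 1 or more UMIs, where Gad2 was called higher (log2 fold change 0.30, edgeR adjusted p = 0.0138), 1 with DESeq2, 1 without the replicate block, and 1 to 2 without 1 library. For Nos1 it was 1, and 2 at 3 or more UMIs, 0 in cells positive for 1 marker alone, 0 without the replicate block, and 0 to 1 without 1 library. For Myh13 it was 2, and 1 at 3 or more UMIs, 1 at 5000 or more UMIs per cell, 1 with DESeq2, 1 without the replicate block, and 1 to 2 without 1 library. For P97 against P45 it was 1, and 2 at 5000 or more UMIs and 2 without a filter on low counts. The cause of these changes was not tested.

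Over all genes edgeR called 1204 for Hpse (DESeq2 467, without the replicate block 524), 823 for Calb2 (266 and 238), 1647 for Pvalb (517 and 575), 583 for Crh (262 and 308), 736 for Nos1 (287 and 322) and 607 for Myh13 (236 and 260). It called 2267 for SST cells against excitatory neurons (DESeq2 1487) and 287 for age (DESeq2 80, without a filter 701). Other counts that moved by over 1.5 times were 613 for Hpse and 427 for Nos1 in cells positive for 1 marker alone, 800 for Hpse with the GFP+ library added, 514 for Calb2 with groups called after thinning, 321 for Myh13 at 3 or more UMIs, and 478 for Nos1 and 275 for Myh13 at 5000 or more UMIs per cell. Without the P97 library they were 719 for Hpse, 753 for Pvalb, 467 for Nos1 and 319 for Myh13, without P45 replicate 1 they were 355 for Crh and 277 for Nos1, and without P45 replicate 2 the count was 408 for Calb2. The pairing of positive and negative sums of a library was checked by the correlation of their deviations, which was at least 0.168 in every pair. No paired analysis was possible for age because 1 library was at P97, and leaving out a P45 library was not run, since it leaves 1 library at each age. Th-positive cells gave no test at 2 or more UMIs. Leaving out oligodendrocyte-rich cells, and cells positive for no marker in the age test, were chosen after seeing the data. Slc6a11 and Slc12a2, with few UMIs, are limited by depth.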
